A study of Mus musculus with 12 samples.

Results

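The deposited expression table of mouse retina held 57073 rows, and 1657 of them carried an identifier starting with XLOC in place of an Ensembl identifier. Such identifiers are given to transcribed loci that are assembled from the reads and do not coincide with an annotated gene. The loci described here are the 1189 XLOC rows with a mean of at least 10 counts over the 12 libraries, which was 71.8% of the XLOC rows. None of the 1189 had a gene name or description in the table. The libraries came from retinas of C57BL/6 mice at postnatal day 17, 6 from mice kept in normoxic air and 6 from mice exposed to 75% oxygen to induce retinopathy (OIR). Libraries were built from the polyadenylated part of total RNA, so RNAs that lack a poly-A tail are poorly covered. The labels do not say whether each library came from a separate animal, and they give neither the days of exposure nor the sex of the mice.

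Mammalian genomes are transcribed well outside annotated genes. The products include long noncoding RNAs, transcripts that run out of divergent promoters on the strand opposite to a gene, extensions of a gene past its annotated end, and RNA of repeats and pseudogenes. In oxygen-induced retinopathy, high oxygen makes capillaries of the central retina regress, and once the animals breathe normal air again the tissue left without vessels becomes hypoxic and abnormal vessels form. The question put to these loci was which of them differed between OIR and normoxic retina, and whether each changed along with the annotated gene beside it.

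Divergent positions were common, so the start regions of genes with a locus on the opposite strand close upstream are shown first. Head-to-head here means that the locus lay upstream of its nearest annotated row, on the opposite strand and within 1000 bases. There were 121 such loci, and 75 of their 121 neighbours matched an entry in RefSeq's promoter windows, which run from 250 bases before a gene's start to 50 after it (build GRCm38.p6). The 75 windows held a median of 25 CG dinucleotides, against 20 over 12192 genes tested in the table and 7 over all 32851 windows. At least 20 CG dinucleotides were found in 52 of the 75 windows (69.3%), against 51.1% of the tested genes' windows and 26.5% of all windows. The letters TATAAA, on either strand, were found in 3 windows (4.0%), against 7.33% and 13.6%. The letters ACGTG, one form of the core that hypoxia-inducible factors bind, were found on either strand in 25 windows (33.3%), against 24.7% and 19.6%. The other form, GCGTG, was not counted. ACGTG itself holds a CG, and the head-to-head windows held more CG, so these shares are not independent of the CG counts. These are matches of letters and not sites of binding.

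The 4 windows below belong to neighbours of head-to-head loci that passed the test and began within 250 bases of the gene, 2 loci that rose (beside Ptpmt1 and Scn8a) and 2 that fell (beside Ppm1e and Tfap2e). The fifth belongs to D17H6S56E-5, the RefSeq gene that lies where XLOC_022028, one of the loci with the largest rise, was assembled. Each runs 5′ to 3′ on the gene's own strand, with CG dinucleotides in capitals. The window of Ptpmt1 (chr2:90918001-90918300, minus strand) held 13 CG, that of Scn8a (chr15:100870395-100870694, plus strand, the upstream one of the gene's windows) 38, that of Ppm1e (chr11:87358945-87359244, minus strand) 36, that of Tfap2e (chr4:126736220-126736519, minus strand) 17 and that of D17H6S56E-5 (chr17:35000697-35000996, minus strand) 29. Of these windows that of Ppm1e held ACGTG, 1 time, and none held TATAAA.
Ptpmt1: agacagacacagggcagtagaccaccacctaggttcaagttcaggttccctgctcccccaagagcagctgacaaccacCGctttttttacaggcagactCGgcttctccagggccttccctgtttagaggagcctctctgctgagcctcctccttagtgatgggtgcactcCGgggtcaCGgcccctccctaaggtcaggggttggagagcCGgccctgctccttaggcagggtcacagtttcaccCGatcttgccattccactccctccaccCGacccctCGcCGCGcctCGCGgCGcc
Scn8a: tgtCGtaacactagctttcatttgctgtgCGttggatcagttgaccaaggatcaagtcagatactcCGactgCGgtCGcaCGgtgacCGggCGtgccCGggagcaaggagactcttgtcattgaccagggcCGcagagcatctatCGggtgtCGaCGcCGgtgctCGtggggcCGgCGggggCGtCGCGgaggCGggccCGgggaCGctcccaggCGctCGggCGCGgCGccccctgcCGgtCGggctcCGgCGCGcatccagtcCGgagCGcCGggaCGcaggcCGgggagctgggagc
Ppm1e: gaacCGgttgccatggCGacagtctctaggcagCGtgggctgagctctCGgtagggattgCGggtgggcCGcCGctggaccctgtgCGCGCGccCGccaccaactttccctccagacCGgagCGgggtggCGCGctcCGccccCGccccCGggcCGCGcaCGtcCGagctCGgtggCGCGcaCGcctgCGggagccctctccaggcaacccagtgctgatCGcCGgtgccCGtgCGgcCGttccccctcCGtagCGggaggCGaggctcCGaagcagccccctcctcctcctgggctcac
Tfap2e: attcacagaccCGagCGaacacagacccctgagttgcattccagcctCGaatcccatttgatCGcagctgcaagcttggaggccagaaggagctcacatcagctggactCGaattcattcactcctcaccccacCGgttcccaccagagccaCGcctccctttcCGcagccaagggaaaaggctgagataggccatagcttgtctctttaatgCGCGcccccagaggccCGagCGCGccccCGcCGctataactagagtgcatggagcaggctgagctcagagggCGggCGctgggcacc
D17H6S56E-5: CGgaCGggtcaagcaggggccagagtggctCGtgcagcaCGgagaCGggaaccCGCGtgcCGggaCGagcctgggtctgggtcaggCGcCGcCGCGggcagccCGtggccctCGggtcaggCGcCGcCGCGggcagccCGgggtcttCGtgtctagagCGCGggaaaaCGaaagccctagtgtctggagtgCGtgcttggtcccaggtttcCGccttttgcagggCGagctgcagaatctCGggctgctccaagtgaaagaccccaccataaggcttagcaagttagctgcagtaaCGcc

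Total counts per library ranged from 17361979 to 21594618. The libraries fell into sets by replicate number, which the labels do not explain: normoxic 1 to 3 stood apart from normoxic 4 to 6. Mitochondrial transcripts took 3.75% to 3.91% of the counts in normoxic 1 to 3, 3.25% to 3.31% in normoxic 4 to 6 and 2.76% to 3.13% in OIR. The summed level of 5 red blood cell genes was 99.2 to 133 CPM (counts-per-million, scaled for library size) in normoxic 1 to 3, 55.4 to 58.0 in normoxic 4 to 6 and 114 to 235 in OIR, and 4 of the 4 tested were higher in OIR. The sum of 11 retinal marker genes was 30410.3 to 34171.3 CPM in the normoxic group and 31382.6 to 34954.8 in OIR, and 7 of the 11 were lower in OIR. For 7 lens genes the sum was 5.41 to 39.3 CPM in normoxic and 1.53 to 13.0 in OIR, with Lim2 at 0 in every library and 3 of 6 tested genes lower. Of 6 pigment epithelium genes 1 was lower (Rlbp1, also a Müller glia gene), and none was higher. The part of these differences in the results below was not tested. The change in each set of numbers is given beside the main counts and the leading loci, except XLOC_003432, for which values in single libraries are given. In bulk tissue, fewer cells of a type and less RNA per cell cannot be told apart.

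Coordinates are those of the table, in build GRCm39 per the submitters' processing notes. Of the 1189 loci, 1176 lay on the 19 autosomes and the X chromosome, 34 to 91 on each, 4 lay on the Y chromosome and 9 on unplaced scaffolds. No locus was on top of an annotated row except XLOC_046440 (chr7:59578608-59584386), which lay within the span of Snhg14, a long imprinted noncoding transcript. A further 6 were on scaffolds with no annotated row, and the other 1182 lay between annotated rows. The median distance to the nearest annotated row was 3808 bases and the largest 294709 bases. With a limit of 5000 bases, 670 loci were near an annotated row and 512 were far from any. The loci spanned 202 to 262712 bases, with a median of 2990.

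Strand and structure divided the loci further. The table gave no strand for 643, plus for 289 and minus for 257. All 950 rows of the table without a strand were XLOC rows. In the 643 loci without a strand, the length behind the FPKM equalled the span, as in an unspliced block. Of the 546 with a strand, 444 had a length below their span, as spliced loci do, and 102 had a length equal to it. The median level was 1.13 FPKM (a level scaled for both locus length and library depth), and the median count was 45.7 per library. Loci without a strand had a median distance of 5332 bases to an annotated row, and loci with a length below their span one of 1721 bases.

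**Figure D1:**
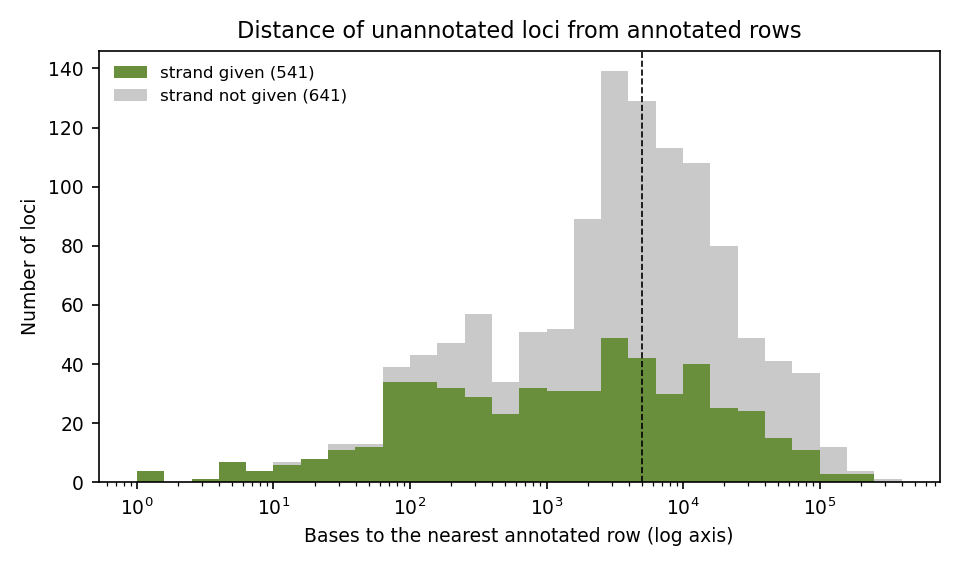
Histogram of the distance in bases (log axis) from each of 1182 loci to the nearest annotated row, stacked by whether the table gives the locus a strand (541) or not (641). The dashed line marks 5000 bases. Of the loci within 1000 bases 237 had a strand and 91 had none, and of those beyond 10000 bases 121 had a strand and 211 had none.

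Between OIR and normoxic retina, more of these loci fell than rose, while the annotated transcriptome moved about evenly. Of the 1189 loci, 1175 passed the filter on low counts and were tested with edgeR's quasi-likelihood test, adjusted over all 18275 rows tested. At an adjusted p of 0.05, 61 were higher in OIR (5.19% of those tested, against 16.2% of all rows) and 167 were lower (14.2%, against 14.8%). Together this is 228 called loci (19.4%, against 31.0% of all rows). The share that fell was thus near that of all rows, and the share that rose was below it. The change was at least 2-fold in 31 of the loci that rose and 36 of those that fell. The median log2 fold change was -0.17 over the loci tested and -0.01 over all rows tested. In 23 loci every OIR library was above every normoxic library (background 9.47% of all rows), and in 59 every OIR library was below (background 6.6%). Together these were 6.98% of the loci tested, against 16.1% of all rows.

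**Figure D2:**
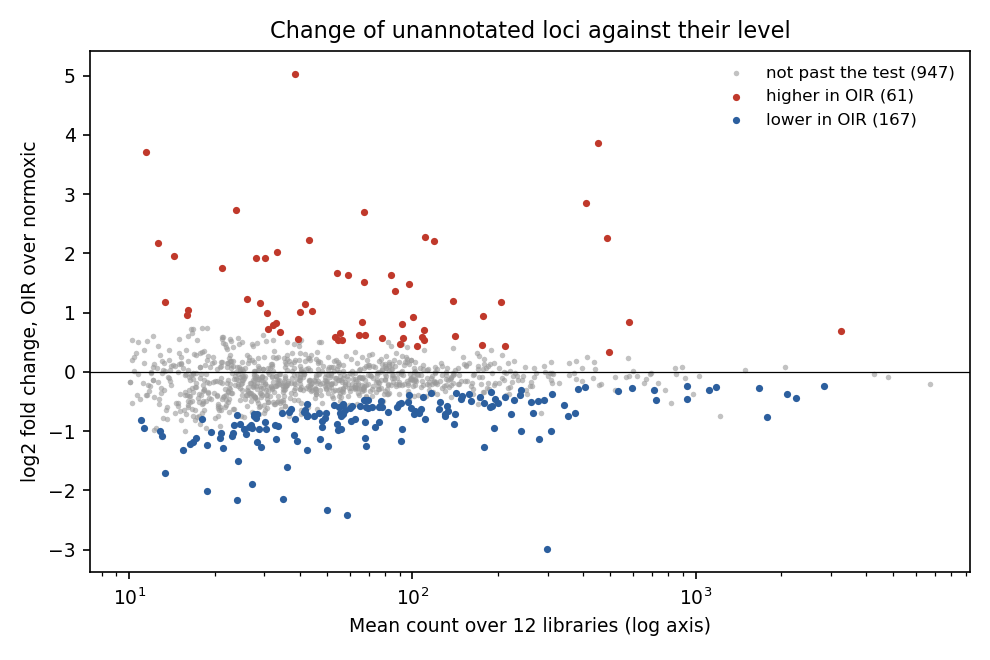
Log2 fold change of OIR over normoxic (vertical axis) against the mean count over 12 libraries (log axis) for the 1175 loci tested. Red points are the 61 loci called higher and blue points the 167 called lower by edgeR. The rises reached further from 0 than the falls (5.02 against -2.98), while the falls were more numerous at every level.

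The balance of falls and rises depended on which replicate numbers were compared. In numbers 1 to 3, 354 loci were called, 60 higher and 294 lower (background 39.1% of all rows, 20.3% higher and 18.8% lower). In numbers 4 to 6, 117 were called, 60 higher and 57 lower (background 20.2%, 11.7% higher and 8.53% lower). The median log2 fold change was -0.32 in numbers 1 to 3 and 0.028 in numbers 4 to 6. The loci as a whole took 0.852% to 0.888% of the counts in normoxic 1 to 3, 0.688% to 0.726% in normoxic 4 to 6, and 0.679% to 0.747% in the 6 OIR libraries. Normoxic 4 to 6 thus overlapped OIR in this share, and normoxic 1 to 3 did not.

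Most of the loci that differed inside the normoxic group were lower in numbers 4 to 6. Between normoxic 4 to 6 and normoxic 1 to 3, with edgeR, 207 loci passed the test, of which 196 were lower and 11 higher in 4 to 6 (background 19.2% of all rows, 9.69% higher and 9.51% lower). Between OIR 4 to 6 and OIR 1 to 3, 18 loci passed, 10 higher and 8 lower in 4 to 6 (background 2.77%, 1.3% higher and 1.48% lower). The change itself differed between the sets of numbers in 84 loci (background 8.21%), being more positive in 4 to 6 in 77 (background 4.21%) and more negative in 7 (background 4%). With both sets tested alone, 80 loci passed in each: 28 were higher in both, 43 lower in both, and 9 were lower in 1 to 3 but higher in 4 to 6. The sign of the change was the same in both sets for 656 of 1175 loci (55.8%). The shares of all rows that passed in both sets, reversed or kept their sign are not given here. These counts are therefore not read as particular to the loci.

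The calls over all 12 libraries held their sign more often, which is partly built in because both sets enter the call. All 61 loci called higher had a positive change in both sets, and of them 50 passed the test in 1 to 3 alone and 34 in 4 to 6 alone. Of the 167 called lower, 163 had a negative change in both sets, 140 passed in 1 to 3 alone and 54 in 4 to 6 alone. With each set tested alone, 60 rises were called in each, and 28 of these loci were shared. Falls numbered 294 in 1 to 3 and 57 in 4 to 6. Over all rows, called rises went from 20.3% in 1 to 3 to 11.7% in 4 to 6, and called falls from 18.8% to 8.53%. The labels name no batch, and the sets of numbers were formed after the libraries were seen to stand apart.

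**Figure D3:**
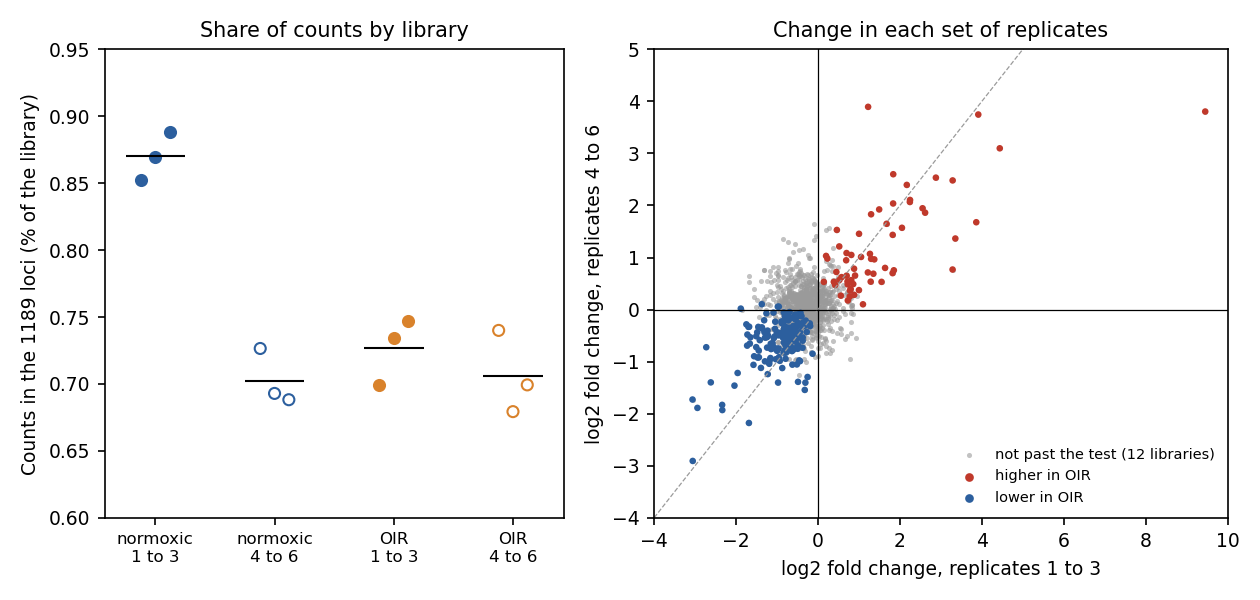
Left, the percentage of each library's counts that fell in the 1189 loci, with filled points for replicates 1 to 3, open points for 4 to 6 and a line at the mean of 3 libraries. The vertical axis starts at 0.6%, and only normoxic 1 to 3 stood above 0.85%. Right, the log2 fold change of each locus in replicates 4 to 6 against that in replicates 1 to 3, where red and blue mark loci called higher and lower over 12 libraries.

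The largest rise among loci whose groups did not overlap was that of XLOC_036425 (chr5:114970044-114976060, plus strand), 875 bases past the end of Gm13821 on the other strand. Its lowest, median and highest levels were 1.90, 2.77 and 4.71 CPM in normoxic and 23.0, 43.7 and 67.5 CPM in OIR. Every OIR library was far above every normoxic library. The log2 fold change was 3.86 (SE 0.27, 14.5-fold), with an edgeR adjusted p of 5.6e-09, and it was 3.91 in numbers 1 to 3 and 3.75 in 4 to 6. Gm13821, a predicted gene with no assigned role, rose too, by 3.69 on the log2 scale (edgeR adjusted p 0.000105). Its level was low, at 0.263 ± 0.275 CPM in normoxic and 3.47 ± 2.18 CPM in OIR (SD, n = 6). The difference between the locus and Gm13821 was 0.42 (SE 0.43, limma adjusted p 0.63).

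XLOC_007080 (chr11:86702638-86707366, plus strand) rose without its neighbour. It lay 4065 bases upstream of Dhx40, which encodes an RNA helicase and runs on the other strand. Levels were 4.12, 5.36 and 6.71 CPM in normoxic, and 32.2, 37.2 and 54.6 CPM in OIR (lowest, median and highest). No libraries overlapped, and the fold change was 7.24 (log2 2.86, SE 0.15, edgeR adjusted p 9.7e-11). Dhx40 had a log2 fold change of 0.08 (edgeR adjusted p 0.413), and the locus exceeded it by 2.76 (SE 0.18, limma adjusted p 6.2e-09). The rise was 3.29 in numbers 1 to 3 and 2.48 in numbers 4 to 6.

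XLOC_022028 (chr17:35215753-35219368, minus strand) lay head to head with Vars, the gene of a valyl-tRNA synthetase, at a distance of 594 bases. It measured 0.487, 0.980 and 1.44 CPM in normoxic and 5.33, 6.28 and 7.17 CPM in OIR, again with no overlap. The log2 fold change was 2.69 (SE 0.19, edgeR adjusted p 8.6e-09), while Vars stood at -0.04 (edgeR adjusted p 0.72). The difference of 2.65 (SE 0.24) passed the test of the pair (limma adjusted p 4.7e-07). The rise was 2.88 in numbers 1 to 3 and 2.53 in 4 to 6. The same interval between Lsm2 and Vars holds 1 RefSeq gene without a row in the table, D17H6S56E-5, whose start region is printed above. That gene is on the minus strand, begins 132 bases from Vars and spans 4097 bases in GRCm38.p6, against 594 bases and 3616 bases for the locus in the table's build. Its other end was 10786 bases from Lsm2, against 10885 for the locus.

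XLOC_003243 (chr1:180602184-180606962, minus strand) lay between Gm38293 and H3f3a, a gene of the replication-independent histone H3.3. Its levels were 1.62, 2.15 and 2.31 CPM in normoxic and 7.01, 9.60 and 15.1 CPM in OIR. The groups did not overlap, with a log2 fold change of 2.27 (SE 0.19, edgeR adjusted p 5e-08), at 2.55 in numbers 1 to 3 and 1.95 in 4 to 6. Gm38293 rose by 1.03 (edgeR adjusted p 0.0211), which was 1.22 less than the locus (SE 0.26, limma adjusted p 0.0066). A second locus in the interval, XLOC_001554 on the plus strand, also rose over 12 libraries (1.05, SE 0.30), but in numbers 4 to 6 it did not pass (0.53, edgeR adjusted p 0.446). RefSeq has the long noncoding RNA 2900024J01Rik there, on the plus strand, starting 9304 bases from Gm38293 in an interval of 33903 bases. XLOC_003243 starts 5962 bases from Gm38293 and spans 4779 in an interval of 32175 bases, so by distance that gene would cover only part of it, on the other strand.

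XLOC_017261 (chr15:73828974-73865897, plus strand) ended 20 bases from Gm32405, and its length of 11574 bases within a span of 36924 is that of a spliced transcript. It rose from 6.26, 9.34 and 11.1 CPM in normoxic to 24.2, 44.7 and 56.9 CPM in OIR. The groups were far apart, at a log2 fold change of 2.26 (SE 0.19, edgeR adjusted p 5.8e-08), with 2.17 in numbers 1 to 3 and 2.39 in 4 to 6. XLOC_011716 (chr12:86849476-86852111), 4619 bases from a row named 7SK, was at 0.428, 0.732 and 1.69 CPM in normoxic and 2.66, 3.76 and 5.89 CPM in OIR. Its log2 fold change was 2.23 (SE 0.30, edgeR adjusted p 1.5e-05), with no overlap, and it was 2.61 in numbers 1 to 3 and 1.86 in 4 to 6.

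A small but distant locus, XLOC_032327 (chr3:70697663-70698827), had 9 counts in all normoxic libraries together and 128 in the OIR libraries. It lay 100949 bases from the nearest annotated row, Gm10780. The ratio scaled for library size was 14.2, with a 95% counting interval of 7.24 to 31.7 that covers counting error only. The OIR libraries ran from 0.623 to 1.89 CPM and the normoxic libraries from 0 to 0.222 CPM, so they did not overlap. On the log2 scale the fitted rise was 3.71 (SE 0.56, edgeR adjusted p 5.5e-05), at 4.44 in numbers 1 to 3 and 3.10 in 4 to 6.

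The locus with the largest fitted change of all, XLOC_003432 (chr1:122802981-122803717), was picked out after its values were seen, because its groups overlapped. It had 13 counts over the normoxic libraries, 12 of them in normoxic 4, and was at 0 in 4 normoxic libraries. In OIR it had 449 counts, at 6.50, 2.23, 5.28, 4.71 and 5.22 CPM in OIR 1 to 5, and 0 in OIR 6. The locus was thus at 39 counts or more in 5 of 6 OIR libraries and at 12 counts or fewer in the others. Its fitted log2 fold change of 5.02 (SE 0.85, edgeR adjusted p 0.000173) changed to 7.82 without normoxic 4 and to 5.28 without OIR 6.

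The largest fall was that of XLOC_025583 (chr19:37212523-37215105), 1639 bases from Gm25268 and on no assigned strand. All normoxic libraries lay in a narrow band of 25.7 to 32.0 CPM, with a median of 28.9. In OIR it was at 0.0561, 7.15, 3.40, 3.39, 0 and 7.81 CPM in replicates 1 to 6. The OIR libraries thus formed steps of near 0, about 3.4 and above 7 CPM, all below normoxic, and the steps did not follow the sets of replicate numbers. The log2 fold change was -2.98 (SE 0.46, edgeR adjusted p 6.4e-05), and it ranged from -3.35 to -2.73 when single libraries were left out. It was -3.06 in numbers 1 to 3 and -2.91 in 4 to 6.

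On chromosome 11, 3 loci that were far from any annotated row fell. XLOC_009157 (chr11:39641626-39645964) and XLOC_009156 (chr11:39571843-39575895) lie on either side of Gm12131, 23086 and 42001 bases from it. XLOC_009155 (chr11:38598615-38600853) lies 88144 bases from its nearest annotated row, a row named U6, and far from both. XLOC_009157 was at 4.19, 5.01 and 6.79 CPM in normoxic and 0.393, 0.959 and 1.64 CPM in OIR (log2 -2.42, SE 0.25, edgeR adjusted p 8.9e-07). XLOC_009156 went from 2.88, 4.61 and 6.16 CPM to 0.280, 0.751 and 2.21 CPM (log2 -2.32, SE 0.33, edgeR adjusted p 2.6e-05). XLOC_009155 went from 1.17, 2.31 and 2.88 CPM to 0.286, 0.417 and 0.781 CPM (log2 -2.15, SE 0.31, edgeR adjusted p 3.2e-05). In each of these 3 loci every OIR library was below every normoxic library. In numbers 1 to 3 and 4 to 6 the changes were -2.94 and -1.89 for XLOC_009157, -3.06 and -1.73 for XLOC_009156, and -2.33 and -1.93 for XLOC_009155.

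A pair of loci fell upstream of Mtif3, which encodes a mitochondrial translation initiation factor. XLOC_038653 (chr5:146915677-146919416, no strand) and XLOC_038462 (chr5:146910557-146928510, minus strand) overlap each other, so they are not independent. XLOC_038653 was at 1.74, 2.83 and 4.65 CPM in normoxic and 0.423, 0.707 and 0.965 CPM in OIR (log2 -2.14, SE 0.29, edgeR adjusted p 1.7e-05). XLOC_038462 had a log2 fold change of -1.90 (SE 0.25, edgeR adjusted p 1.5e-05). In numbers 1 to 3 and 4 to 6 they were at -2.34 and -1.83 (XLOC_038653) and at -1.69 and -2.18 (XLOC_038462). Mtif3 itself was at 0.02 (edgeR adjusted p 0.907), and both differed from it (limma adjusted p 0.000133 and 0.000157). In GRCm38.p6 the interval between Mtif3 and Lnx2 holds the pseudogene Gm46936, 14933 bases from Mtif3, where XLOC_038653 lies 15066 bases from it in the table's build. Reads of a pseudogene and its source gene can be hard to place, so this level is uncertain.

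The remaining falls in the leading group were of low level. XLOC_049044 (chr8:50070230-50071703) went from 1.03, 1.69 and 2.38 CPM to 0.168, 0.429 and 0.635 CPM (log2 -2.0, SE 0.31, edgeR adjusted p 6.7e-05). XLOC_009763 (chr12:70399224-70424185, plus strand), 743 bases past Gm32151 on the same strand, went from 0.799, 1.10 and 1.58 CPM to 0.0561, 0.352 and 0.572 CPM (log2 -1.71, SE 0.40, edgeR adjusted p 0.0028). Neither overlapped between groups, and in numbers 1 to 3 and 4 to 6 they were at -2.62 and -1.40 (XLOC_049044) and at -2.04 and -1.46 (XLOC_009763).

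**Figure D4:**
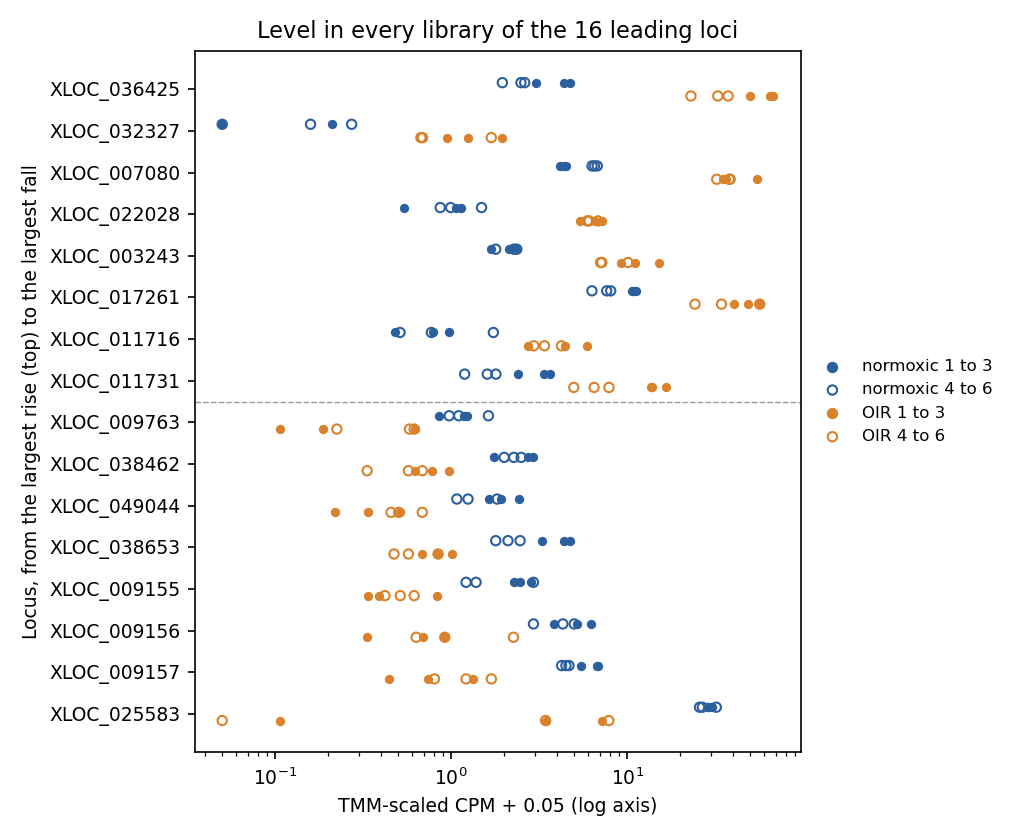
Level of the 8 loci with the largest rises and the 8 with the largest falls among those called with groups that did not overlap, in TMM-scaled CPM plus 0.05 (log axis). Each point is 1 library, blue for normoxic and orange for OIR, filled for replicates 1 to 3 and open for 4 to 6. In each locus the 6 OIR libraries lie to one side of the 6 normoxic libraries, and XLOC_025583 has OIR libraries from 0 to 7.81 CPM.

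Of the 228 called loci, 35 lay within 50000 bases of another called locus, in 15 groups, and in 14 of these groups all loci changed in the same direction. Agreement in direction is partly given in advance, since 167 of the 228 called loci fell and some loci of a group overlap each other. The share of all tested loci that lie this close is not given here. Whether loci this close are pieces of 1 transcript was not tested. Upstream of Inf2, the gene of a formin that remodels actin, 3 loci rose together: XLOC_011355 by 1.63 (SE 0.31), XLOC_011731 by 2.21 (SE 0.31) and XLOC_011732 by 1.95 (SE 0.48) on the log2 scale. XLOC_011731 (chr12:112531137-112538539) was at 1.14, 2.04 and 3.59 CPM in normoxic and 4.93, 10.7 and 16.5 CPM in OIR (edgeR adjusted p 2.5e-05). None of the 3 overlapped between groups. In numbers 1 to 3 and 4 to 6 the changes were 1.49 and 1.92 for XLOC_011355, 2.25 and 2.11 for XLOC_011731, and 1.22 and 3.89 for XLOC_011732 (difference 2.67, edgeR adjusted p 0.0492). Inf2 had a log2 fold change of 0.28 (edgeR adjusted p 0.0746), and the loci exceeded it by 1.39, 1.83 and 1.60 (limma adjusted p 0.0017, 0.000111 and 0.0118).

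The group with mixed directions lay around Mir124-2hg, the host transcript of a copy of miR-124, a microRNA abundant in neurons. Mir124-2hg fell by 0.34 (edgeR adjusted p 0.0205). On one side of it, XLOC_030955 (chr3:17836158-17841067) went from a median of 57.8 CPM to 40.8 CPM (log2 -0.45, SE 0.09, edgeR adjusted p 0.000772), 1 OIR library reaching into the normoxic range. On the other side 3 loci rose. XLOC_029552 (chr3:17876694-17907796, plus strand) went from 0.666, 1.91 and 2.81 CPM to 3.36, 5.69 and 7.18 CPM, and XLOC_032299 (chr3:17879891-17886310), which overlaps it, from 5.55, 6.52 and 8.78 CPM to 9.68, 16.3 and 19.6 CPM. Their log2 fold changes were 1.52 (SE 0.26, edgeR adjusted p 0.000192) and 1.18 (SE 0.16, edgeR adjusted p 1.4e-05), and neither overlapped between groups. XLOC_032298 rose by 0.59 (SE 0.16, edgeR adjusted p 0.0069), but in numbers 4 to 6 alone it did not pass (0.28, edgeR adjusted p 0.367). The other 3 passed in both sets, at -0.60 and -0.32 (XLOC_030955), 1.30 and 1.83 (XLOC_029552), and 1.37 and 0.96 (XLOC_032299). The loci on that side exceeded Mir124-2hg by 0.95 to 1.91 (limma adjusted p 0.000137 to 0.0144).

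Between 2610028E06Rik and Csf3r, the receptor of granulocyte colony-stimulating factor, 4 loci fell on chromosome 4. Their log2 fold changes were -0.59 (XLOC_033349), -0.72 (XLOC_034763), -1.11 (XLOC_035297) and -1.13 (XLOC_033351), with edgeR adjusted p from 0.0032 to 0.0349. XLOC_035297 was at 4.44, 4.68 and 6.10 CPM in normoxic and 0.793, 2.51 and 4.12 CPM in OIR, with no overlap. In numbers 4 to 6 alone none of the 4 passed the test (edgeR adjusted p 0.0608 to 0.265). On the Y chromosome, XLOC_055449 fell by 1.14 (SE 0.29) and XLOC_056335 by 1.27 (SE 0.28) on the log2 scale. Both were at higher levels in normoxic 1 to 3: the change of XLOC_055449 was -1.88 in numbers 1 to 3 and 0.02 in 4 to 6 (difference 1.91, edgeR adjusted p 1.9e-06), and that of XLOC_056335 was -1.72 and -0.48 (difference 1.24, edgeR adjusted p 0.0013).

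Of the 6 loci with the most reads, XLOC_016863 rose, XLOC_018400 and XLOC_032291 fell, and the others did not pass the test. XLOC_038831 (chr6:30175162-30194627, plus strand) had the highest mean count, 6717 per library, and a mean of 93.5 FPKM over a spliced length of 3898 bases. It began 36 bases past Rncr4, a retinal noncoding RNA that lies in the region of the miR-183, miR-96 and miR-182 cluster of photoreceptors, on the same strand. Its level was 300.4, 389 and 482 CPM in normoxic and 317, 341 and 349 CPM in OIR, so the OIR libraries lay inside the normoxic range. The log2 fold change over 12 libraries was -0.21 (SE 0.11, edgeR adjusted p 0.169), and for Rncr4 it was 0.07 (edgeR adjusted p 0.563). In numbers 1 to 3 the locus was lower in OIR by 0.50 on the log2 scale (edgeR adjusted p 1.7e-08), while in 4 to 6 it was higher by 0.15 (edgeR adjusted p 0.0394). The test of that difference gave 0.64 (edgeR adjusted p 1.5e-06).

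Per length, XLOC_032291 (chr3:5925398-5926050) was the most abundant of the 6 at 236 FPKM, followed by XLOC_052102 on an unplaced scaffold at 214 FPKM. XLOC_032291 went from 156, 167 and 178 CPM to 109, 149 and 157 CPM, with groups that just overlapped (log2 -0.24, SE 0.07, edgeR adjusted p 0.0176). It passed in numbers 1 to 3 (-0.43) and not in 4 to 6 (-0.06, edgeR adjusted p 0.428). XLOC_052102 was at -0.09 over 12 libraries (edgeR adjusted p 0.448), with -0.30 in numbers 1 to 3 and 0.11 in 4 to 6. XLOC_010352 (chr12:3191869-3213504) stood at 213 to 250 CPM in normoxic and 206 to 257 CPM in OIR, with a log2 fold change of -0.04 (edgeR adjusted p 0.627).

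XLOC_016863 and XLOC_018400, both with a length below their span, changed in both sets of numbers. XLOC_016863 (chr15:7471781-7487572, plus strand) lay in the interval between Egflam, which encodes the synaptic matrix protein pikachurin of photoreceptor ribbon synapses, and Gm19227. It rose from 127, 136 and 143 CPM to 167, 217 and 261 CPM with no overlap (log2 0.69, SE 0.09, edgeR adjusted p 9.4e-06). The rise was 0.86 in numbers 1 to 3 and 0.49 in 4 to 6, and the difference passed its own test (-0.37, edgeR adjusted p 0.0105). Its nearest annotated row, Gm16029, lay 30918 bases away and was of low level, at 0.717 ± 0.266 CPM in normoxic and 0.508 ± 0.176 CPM in OIR (SD, n = 6). Gm16029 had a log2 fold change of -0.48 (edgeR adjusted p 0.307). The locus exceeded it by 1.08 (SE 0.25, limma adjusted p 0.0118). RefSeq places the long noncoding RNA Gm41263 (4551 bases) on the same strand, 43556 bases from Egflam, where the locus lies 43904 bases from it in the table's build. A longer one, Gm41262 (24870 bases, strand not known here), also lies there, 44667 bases from Egflam. XLOC_018400 (chr15:86439694-86459461, minus strand), 56989 bases past Tbc1d22a, fell from 134, 141 and 147 CPM to 87.2, 107 and 115 CPM. Its groups did not overlap either, and the change was -0.44 (SE 0.06, edgeR adjusted p 1.5e-05), at -0.44 in numbers 1 to 3 and -0.43 in 4 to 6. Beside it XLOC_017484 on the plus strand fell by 0.94 (SE 0.19), at -1.36 in numbers 1 to 3 and without a call at -0.36 in 4 to 6 (edgeR adjusted p 0.124), while Tbc1d22a rose by 0.23 (edgeR adjusted p 0.0472).

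The called loci farthest from any annotated row were XLOC_014314, XLOC_024111 on chromosome 18 (132253 bases away), XLOC_003420 (chr1:100415687-100418319, 106480 bases away) and XLOC_032327, described above. XLOC_014314 (chr14:4976175-4992938, plus strand) lay 166739 bases upstream of Thrb, a thyroid hormone receptor gene that acts in cone development. It was at 0.598, 2.15 and 3.64 CPM in normoxic and 0.870, 1.13 and 1.38 CPM in OIR (log2 -0.97, SE 0.32, edgeR adjusted p 0.0272), with overlapping groups. XLOC_014314 lost its call without OIR 5 or 6 or without normoxic 1, 2 or 3 (edgeR adjusted p 0.0512 to 0.084). XLOC_003420 (log2 -0.70, SE 0.23, edgeR adjusted p 0.027) lost it without OIR 3, 4 or 5 or normoxic 1, 2 or 3 (edgeR adjusted p 0.0544 to 0.07). In numbers 4 to 6 alone neither passed, at -0.34 for XLOC_014314 and -0.45 for XLOC_003420 (edgeR adjusted p 0.648 and 0.374). In numbers 1 to 3 both passed, at -1.37 and -0.88. XLOC_024111 fell by 0.84 (SE 0.25, edgeR adjusted p 0.0135), from a median of 4.83 CPM to 2.38 CPM, with overlapping groups. It kept its call in both sets, at -0.79 in numbers 1 to 3 and -0.94 in 4 to 6.

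How far a locus followed its neighbour was tested on the difference between them within each library. This was possible for 820 loci whose nearest annotated row was tested too, and over all such pairs (821, with 1 XLOC row below the minimum count) 71 passed limma's test at an adjusted p of 0.05 (8.65%). The locus was above its neighbour in 30 and below it in 41. The count was 41 without normoxic 1, 44 without OIR 1 and 44 without OIR 2, and it was 142 in numbers 1 to 3 and 23 in numbers 4 to 6. Of the 71, 27 had a change called in the locus alone, 27 in the neighbour alone, 14 in both and 3 in neither. Of 142 called loci with a tested neighbour, 42 had a neighbour called in the same direction, 12 in the opposite direction and 88 a neighbour that was not called. Over all rows tested, 31.0% were called, 16.2% higher and 14.8% lower, so an uncalled neighbour is the common case for any row. Across the 820 pairs, Pearson's r between the log2 fold changes was 0.37 and Spearman's rho 0.28. This describes pairs from the same 12 libraries, with 743 neighbours in all, and carries no test. At gaps of up to 1000 bases r was 0.48 (285 pairs, 12 called), and beyond 10000 bases it was 0.20 (157 pairs, 34 called).

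**Figure D5:**
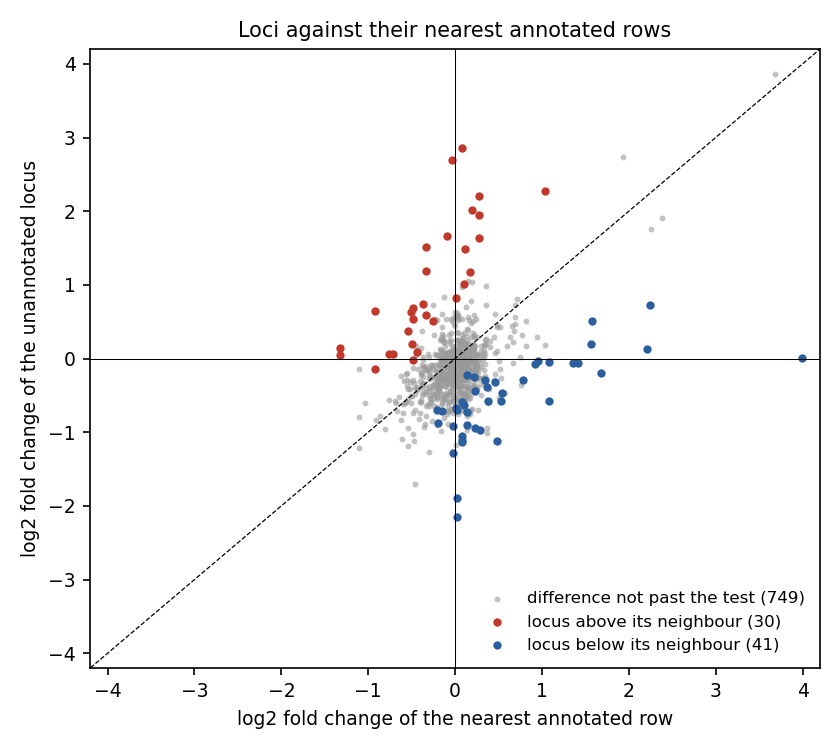
Log2 fold change of each of 820 loci (vertical axis) against that of its nearest annotated row (horizontal axis). Red marks the 30 loci whose log2 fold change lay above that of their neighbour and blue the 41 where it lay below, at a limma adjusted p of 0.05, and the dashed line marks equal change. The far right point is Apln, which rose by 4.00 beside a locus at 0.01.

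Some neighbours rose strongly beside a locus with no detectable change. Apln, whose product apelin is made by the tip cells of growing vessels, rose from 6.76 ± 3.57 to 108 ± 16 CPM (SD, n = 6), by 4.00 on the log2 scale (edgeR adjusted p 4.8e-10). XLOC_054718 (chrX:47098690-47099934), 14088 bases past the end of Apln, was at 1.09, 1.41 and 2.11 CPM in normoxic and 0.735, 1.55 and 2.52 CPM in OIR, with overlapping groups. The pair differed by -4.23 (SE 0.40, limma adjusted p 7.8e-07). Beside Fmod, the gene of the matrix protein fibromodulin, which rose by 2.21, XLOC_002763 was at 0.13 (SE 0.19), and the pair differed by -2.16 (limma adjusted p 0.0012). Beside Lgals9, which encodes galectin-9 and rose by 1.68, XLOC_009185 was at -0.19 (SE 0.12), and the pair differed by -1.80 (limma adjusted p 1e-06). Beside Vwa1, a gene of a basement membrane protein that rose by 1.41, XLOC_035327 lay only 237 bases away and was at -0.05 (SE 0.13), with a difference of -1.46 (limma adjusted p 1.4e-06).

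Of the 121 head-to-head loci, 120 were tested, and 6 were called higher and 7 lower (background 16.2% and 14.8% of all rows). The median log2 fold change was -0.06, with 0.01 for their neighbours. Of 114 pairs, 7 differed from the neighbour. XLOC_018565 (chr15:100766666-100767551), 187 bases from Scn8a, the gene of a neuronal sodium channel, was at 0.750, 1.06 and 2.22 CPM in normoxic and 1.70, 2.28 and 2.97 CPM in OIR. The groups overlapped, and the rise was 0.83 (SE 0.26, edgeR adjusted p 0.0229) against 0.01 for Scn8a, a difference of 0.86 (SE 0.26, limma adjusted p 0.0489). The rise did not pass in numbers 1 to 3 alone (0.52, edgeR adjusted p 0.268). XLOC_026623 (chr2:90748537-90750891), 147 bases from Ptpmt1, the gene of a mitochondrial phosphatase, went from a median of 23.9 CPM to 43.2 CPM. It rose by 0.84 (SE 0.19, edgeR adjusted p 0.0020), but its lowest OIR library was at 16.4 CPM, below all normoxic libraries, and the difference from Ptpmt1 did not pass (limma adjusted p 0.0673).

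Both XLOC_006198 and XLOC_015283 lay beside genes of neurofilaments. XLOC_006198 (chr11:4898670-4905604) lay 605 bases from Nefh and was at 0.37 (SE 0.15, edgeR adjusted p 0.0691), while Nefh, the heavy neurofilament gene, fell by 0.54 on the log2 scale (edgeR adjusted p 2.3e-07). That pair differed by 0.89 (SE 0.18, limma adjusted p 0.0043). XLOC_015283 (chr14:68362420-68368820), 124 bases from Nefm, the medium neurofilament gene, fell by 0.58 (SE 0.19, edgeR adjusted p 0.0263) beside a fall of 0.69 in Nefm, and passed in neither set alone (edgeR adjusted p 0.104 in numbers 1 to 3 and 0.0908 in 4 to 6). Those changes did not differ past the test (difference 0.09, SE 0.24, limma adjusted p 0.864).

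Among the printed windows, the falls were in XLOC_007086 and XLOC_033367. XLOC_007086 (chr11:87249899-87253081) lay 49 bases from Ppm1e, the gene of a neuronal protein phosphatase, and went from 7.89, 10.1 and 12.9 CPM to 6.11, 7.45 and 7.98 CPM, with a slight overlap. It fell by 0.49 (SE 0.13, edgeR adjusted p 0.0089) and Ppm1e by 0.23 (edgeR adjusted p 0.0013). XLOC_033367 (chr4:126630235-126636754) lay 201 bases from Tfap2e, the gene of the transcription factor AP-2 epsilon, and went from 1.72, 2.14 and 2.57 CPM to 0.689, 1.24 and 1.64 CPM with no overlap. It fell by 0.85 (SE 0.22, edgeR adjusted p 0.0068), with Tfap2e at -0.27 (edgeR adjusted p 0.188). In numbers 4 to 6 alone neither passed (edgeR adjusted p 0.603 for XLOC_007086 and 0.300 for XLOC_033367).

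Loci just past a gene's end on the same strand were fewer. Of 30 loci within 1000 bases past the end of a row on their own strand, all tested, 1 was called higher and 10 lower (background 16.2% and 14.8% of all rows). The 69 loci within 5000 bases in this position had a median of -0.44 in numbers 1 to 3 and 0.02 in 4 to 6. Among the 30 loci within 1000 bases, 24 had a tested neighbour, and 1 of these 24 pairs differed. Spearman's rho over the 24 was 0.51, with 0.21 over the 114 head-to-head pairs, as a description of pairs from the same libraries. The median log2 fold change was -0.29 for the 30 loci within 1000 bases and 0.08 for their neighbours. Whether such loci are unannotated ends of the gene beside them was not tested.

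The nearest rows were also compared with genes well known in this model. Of 93 genes of hypoxia targets, endothelium and tip cells, glia, photoreceptors and inner neurons, 5 were the nearest row of a locus, none of them from the 16 glial genes. XLOC_054718, beside Apln, is described above, and it did not pass the test. Another 3 loci beside listed genes did not pass either. Beside P4ha1, a collagen prolyl hydroxylase gene induced by hypoxia, XLOC_006102 was at 0.15 (SE 0.20) while P4ha1 rose by 0.40 (edgeR adjusted p 6.1e-06). Beside Rp1, a gene of the photoreceptor axoneme, XLOC_000008 (chr1:4066554-4069711) was at 0.30 (SE 0.16) while Rp1 rose by 0.25 (edgeR adjusted p 0.000911). Beside Pde6a, a subunit gene of the rod phosphodiesterase, XLOC_024155 was at -0.47 (SE 0.26) while Pde6a rose by 0.14 (edgeR adjusted p 0.0218). None of these 3 pairs passed the test of the difference (limma adjusted p 0.197 to 0.941).

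Some loci lay where RefSeq places a gene. For 1158 loci both flanking genes were found in RefSeq. Of these, 210 (18.1%) lay, by their distance from each flank, at least partly where RefSeq has a gene that is absent from the table. Any overlap by both distances counted, also with long genes, such as Gm33963 (106694 bases) for XLOC_009156 (4053 bases). How many loci would be so placed by chance was not tested. For 185 loci that gene was a long noncoding RNA and for 17 a protein-coding gene. The strand was known on both sides for 101 of the 210, and it was the same for 84. The order and distances were compared within each build and no coordinate was converted, so these are neighbours in place and not matched identities.

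At the edge of the rule, XLOC_003424 (chr1:104940026-104943405) and XLOC_034861 (chr4:132240319-132242207) were just inside with a mean of 10.1 counts each. XLOC_025005 (chr19:7470159-7471095) and XLOC_029000 (chr2:154258413-154270221) were just outside, at 9.83 counts each. The first of these, XLOC_003424, was at 0.577 ± 0.360 CPM in normoxic and 0.513 ± 0.237 CPM in OIR (SD, n = 6), and XLOC_034861 was at 0.583 ± 0.318 and 0.520 ± 0.345 CPM. Neither passed the test, with log2 fold changes of -0.17 (SE 0.42, edgeR adjusted p 0.806) for XLOC_003424 and -0.17 (SE 0.46, edgeR adjusted p 0.824) for XLOC_034861.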

How the data were processed

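The deposited table gives, per the file headers, a raw count and an FPKM value for each row in each library. Trimmomatic, HISAT2 version 2.0.5, HTSeq and build GRCm39 are named per the submitters' processing notes. Their roles and settings, the program that assembled the XLOC loci, the annotation release and the strand setting of the counting were not given in the sources used here. Without a known strand setting, reads of overlapping loci on opposite strands cannot be told apart.

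Counts of all rows were tested with edgeR version 4.0.16 in R version 4.3.3 (low rows removed by filterByExpr at a count of 10 and a total of 15, TMM factors, quasi-likelihood test, Benjamini-Hochberg adjustment over the 18275 rows tested, threshold 0.05). Levels are TMM-scaled CPM. Locus minus nearest annotated row was tested with limma version 3.58.1 on log2 CPM with a prior count of 2, adjusted over all pairs. Groups and replicate numbers came from the sample titles, and since the labels do not tie libraries to animals, p-values describe only the variation among libraries. Named loci were the 8 highest and 8 lowest called log2 fold changes with groups that did not overlap, the 6 with the highest mean count, the 4 called loci farthest from a row, the 4 that differed most from their neighbour, called loci beside a listed gene (1, not reported here), and 2 on either side of the minimum. Others named (in groups of close loci, in pairs, beside a promoter and XLOC_003432) were chosen after their values were seen. The loci and lists were chosen with earlier results of these data known. Alternatives were median-of-ratios factors, other filters and minimum counts, a replicate block, DESeq2 version 1.42.0, limma on log2(FPKM + 1) and log2(FPKM + 0.1), each set of replicate numbers, a term for the set and leaving out each library. The procedure was tested on simulated data. Promoter sequences and RefSeq genes are from RefSeq's GRCm38.p6 tables, and locus sequences are not printed because no GRCm39 genome was used here.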

Additional observations from a re-analysis of the deposited data

Results flagged for a closer look

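The highest of 6 OIR libraries stood apart from the others in 2 of 58 groups of libraries checked, and chance alone would mark about 1 group in 20. For XLOC_007080 this was OIR 2 at 54.6 CPM, with the others at 32.2 to 38.4 CPM. For XLOC_009156 it was OIR 6 at 2.21 CPM, with the others at 0.280 to 0.870 CPM.

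In 5 of the 29 loci chosen by the naming rule, the change between OIR and normoxic differed between replicate numbers 1 to 3 and 4 to 6 by edgeR's test of the difference itself. XLOC_038831, beside Rncr4, went from -0.50 in numbers 1 to 3 to 0.15 in 4 to 6, a difference of 0.64 on the log2 scale (edgeR adjusted p 1.5e-06). XLOC_052102 differed by 0.41 (edgeR adjusted p 0.0120) and XLOC_032291 by 0.36 (edgeR adjusted p 0.0221), both being lower in OIR in numbers 1 to 3. The rises of XLOC_007080 and XLOC_016863 were smaller in 4 to 6, by -0.80 (edgeR adjusted p 0.0223) and -0.37 (edgeR adjusted p 0.0105). Over all 1175 loci tested, 84 passed this test (7.15%, against 8.21% of all rows). The 29 loci were chosen partly for large changes or high counts, so their share is not compared with that background. What separates the sets was not tested.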

How the results depend on the processing

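The number of called loci, 228 over 12 libraries (61 higher, 167 lower), stayed between 187 and 249 when single libraries were left out, with 47 to 61 higher and 128 to 195 lower. It was 217 to 254 with median-of-ratios factors, no filter, DESeq2 (241), limma on either FPKM scale or a term for the set of replicate numbers (254). A minimum mean of 50 counts, as a filter on all rows or on the loci alone, left 141 called (37 higher, 104 lower), since fewer loci are then counted. Numbers 1 to 3 alone gave 354, of which 294 were lower, and numbers 4 to 6 alone gave 117, of which 57 were lower, while all rows went from 5673 calls to 3693 in 4 to 6. With 1000 bases as the limit, 328 loci in place of 670 were near an annotated row. The pairs that differed from their neighbour, 71 with 12 libraries, numbered 142 in numbers 1 to 3, 23 in 4 to 6, and 41 to 69 without single libraries (44 without OIR 1, 44 without OIR 2 and 41 without normoxic 1). The term for the set, and the pair counts by set or without single libraries, were added after seeing the data.

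The replicate numbers did not pair the libraries: the correlation of deviations of same-numbered libraries ran from -0.03 to 0.14, and own numbers correlated best in 2 of 6. With the replicate number as a block, 216 loci were called (57 higher, 159 lower) and 55 pairs.

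Of the loci chosen by the naming rule, 4 reversed direction under an alternative. In numbers 4 to 6 the median of the loci was 0.028, XLOC_038831 was at 0.15, XLOC_052102 at 0.11, XLOC_003424 at 0.70 and XLOC_034861 at 0.055, against -0.17, -0.21, -0.09, -0.17 and -0.17 over 12 libraries. Among other called loci XLOC_055449 went from -1.14 to 0.02. Without single libraries XLOC_003424 ranged from -0.34 (without normoxic 6) to 0.21 (without normoxic 2), and XLOC_034861 from -0.51 (without OIR 2) to 0.062 (without OIR 6). The cause was not tested. Of 628 values of named loci under alternatives, 600 kept direction and call, 17 lost the call, 2 gained it and 9 reversed. Of 179 loci tested with a mean of 10 to 20 counts, 6 were called higher and 13 lower, and of 281 with 50 to 100 counts, 18 and 43. The part of depth in this was not tested.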
